A study of Mus musculus with 26 samples.

Results

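The genes of insulin-like growth factor (IGF) and insulin signalling were followed in mouse embryonic stem (ES) cells with and without the KRAB zinc finger protein ZFP57. The set was given as 10 gene symbols, chosen by name and pathway with earlier results of these data known. All 10 were found among the 24409 genes of the expression table. They comprise the ligand *Igf1*, the receptors *Igf1r* and *Insr*, the receptor substrates *Irs1* and *Irs2*, the binding proteins *Igfbp2*, *Igfbp3*, *Igfbp4* and *Igfbp5*, and the mRNA-binding protein gene *Igf2bp1*. Of these, 9 had a mean of at least 0.1 FPKM (fragments per kilobase of transcript, scaled to library size) and were tested, and *Igf1* did not.

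IGF1, IGF2 and insulin bind receptor tyrosine kinases at the cell surface, which phosphorylate the IRS adaptor proteins and so switch on PI3K, AKT and mTOR and keep FOXO transcription factors out of the nucleus. Secreted IGF-binding proteins hold IGFs outside the cell and limit or prolong their access to the receptor. The IGF2 mRNA-binding proteins share the name but act inside the cell, on the stability, transport and translation of mRNAs.

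RNA-seq of total RNA depleted of ribosomal RNA had 3 wild-type (WT) and 2 ZFP57 KO libraries from male C57BL/6J ES cells. WT cells carried intact *Zfp57*, and KO cells were homozygous for a targeted disruption of its coding exons 4 and 5, a zygotic and not a maternal-zygotic deletion. Both came from morulae of embryonic day 2.5, kept 2 days in KSOM with the 2 kinase inhibitors of 2i, and their inner cell masses were then grown in N2B27 medium with 2i and LIF, which maintain ground-state pluripotency. The N2 supplement contains insulin, so every library comes from cells that were given this ligand. The labels number the libraries within each genotype but do not say whether each is a line, a clone or a culture of its own, and p-values measure only the spread between these libraries.

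*Zfp57* itself was measured at 75.9, 72.3 and 70.6 FPKM in WT and at 19.0 and 21.6 FPKM in KO, 27.8% of the WT mean. The table gives 1 value for the whole gene, so RNA from the exons left intact cannot be told apart from full-length RNA. The steps between low FPKM values correspond to between 50900000 and 58800000 fragments per library. The summed FPKM of 7 pluripotency markers was 642 to 661 in WT and 724 to 783 in KO, and 4 of the 7 were called, all higher in KO, *Klf4* (log2 fold change 0.74), *Tfcp2l1* (0.60), *Esrrb* (0.42) and *Pou5f1* (0.27), beside 18.8% of all tested genes. Those not called were *Nanog* (-0.11), *Sox2* (-0.04) and *Zfp42* (0.06), and *Nanog* was called lower relative to chromosome 6 (-0.27, limma adjusted p = 0.0025). Of 7 fibroblast markers, which would reveal feeder cells, 3 were at 0 in every library and 5 stayed under 0.1 FPKM in every library, with sums of 0.34 to 0.36 in WT and 0.16 to 0.33 in KO. The sum of 5 trophoblast markers was 0.77 to 1.23 FPKM in WT and 2.88 to 3.13 FPKM in KO, that of 6 primitive endoderm markers 0.75 to 0.91 and 1.07 to 1.39, and that of 4 primed epiblast markers 19.2 to 22.4 and 15.2 to 19.8. By limma the called genes of these last 3 lists were *Eomes* (log2 fold change 2.00), *Sox7* (1.82), *Fgf5* (1.57) and *Pou3f1* (-0.76), so single genes carried the first 2 sums, and *Dnmt3b*, which made up most of the third, was not called. Their part in the results below was not tested, and in bulk RNA fewer cells of a type and less RNA per cell cannot be told apart.

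With limma on log2(FPKM + 0.1) and Benjamini-Hochberg adjustment over all genes tested, 7 of the 9 tested members passed an adjusted p of 0.05, 6 of them lower in KO and 1, *Irs2*, higher. Over all 14612 tested genes 41.1% passed this threshold, 22.3% lower and 18.8% higher. The median log2 fold change (KO minus WT) was -0.49 over the tested members and -0.01 over all tested genes. Both KO libraries lay beyond all WT libraries for 7 of the 9, against 63.4% of all tested genes, below them for 6 (33.1% of all tested genes) and above them for 1 (30.3%). Of the tested members, 3 lie on chromosome 11 (*Igfbp3*, *Igfbp4* and *Igf2bp1*), where 825 of 1224 tested genes, 67.4%, were called lower in KO and the median log2 fold change was -0.47. For these 3 genes the value after subtraction of the chromosome's median is given beside the uncorrected one. With every chromosome treated in this way 5 of the 9 passed, against 37.2% of all tested genes. The set was chosen with earlier results known, so these counts describe it and are no test of it against all genes.

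**Figure D1:**
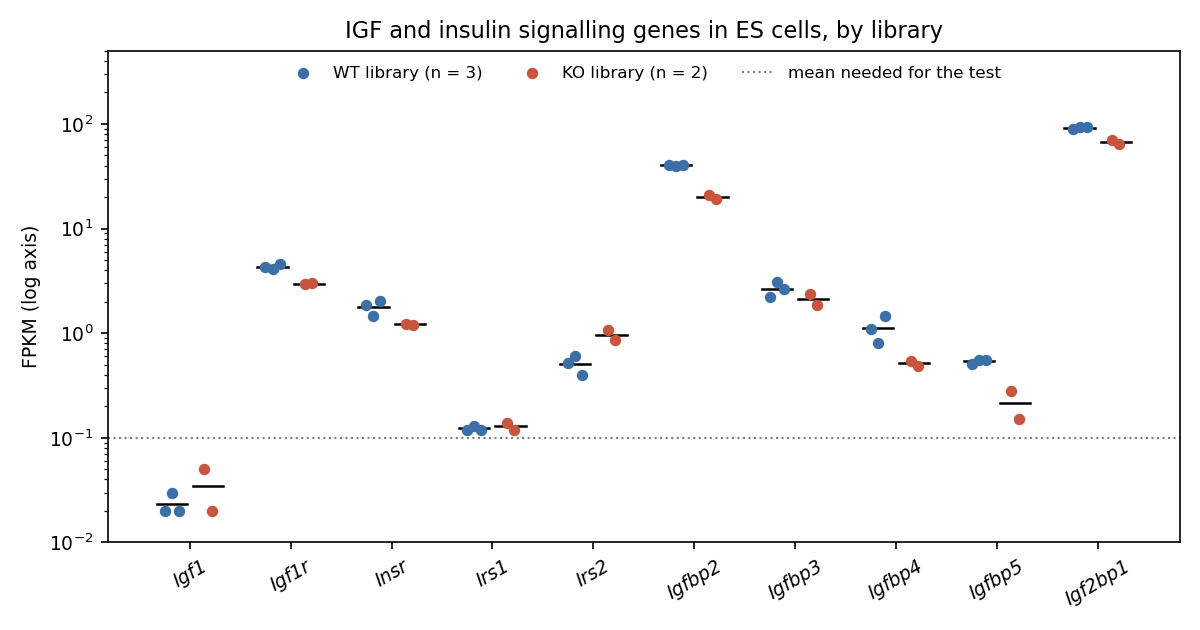
FPKM of the 10 genes in each library, on a log axis, with WT libraries in blue (n = 3), KO libraries in red (n = 2) and a black line at each group mean. The genes span from about 0.02 FPKM for Igf1 to about 90 FPKM for Igf2bp1, and the KO points lie below all WT points for 6 genes, above them for Irs2, and the groups overlap for Igf1, Irs1 and Igfbp3.

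*Igf1*, on chromosome 10 (87858265 to 87937047, plus strand, GRCm38), encodes the growth factor that activates the IGF1 receptor. It was close to the detection limit, at 0.02, 0.03 and 0.02 FPKM in WT and 0.05 and 0.02 FPKM in KO. The groups overlapped, and these levels rest on about 8 to 21 fragments per library, so a difference was not detectable at this depth. Without the filter on low values the fitted log2 fold change was 0.12 (95% interval -0.20 to 0.44), with a limma adjusted p of 0.52. The 0.1 FPKM added before the log exceeds every value of *Igf1*, which shrinks both the estimate and the interval. In plain FPKM the KO mean was 150% of the WT mean, so the interval does not leave out larger changes.

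*Igf1* was the gene of the set closest to a ZFP57 binding site. The deposited list for C57BL/6J ES cells holds 1423 ZFP57 peaks as positions without a score, and a peak had to recur in 2 or more of the 3 WT replicates to be listed. A peak of 318 bp lay 1416 bp beyond the 3′ end of *Igf1* and 80198 bp from its start, and the same interval is in the list named for hybrid lines. The gene with the next shortest distance was *Igfbp3*, where a peak of 339 bp lay 24936 bp beyond the 3′ end and is absent from the hybrid list. Both are shown, as the nearest peaks of the 2 genes with the shortest distances. The plus strand of GRCm38 is printed, trimmed to the central 300 bases. The capitals mark TGCCGC, the hexanucleotide recognised by ZFP57, here read as its reverse complement GCGGCA.
chr10:87938472-87938771: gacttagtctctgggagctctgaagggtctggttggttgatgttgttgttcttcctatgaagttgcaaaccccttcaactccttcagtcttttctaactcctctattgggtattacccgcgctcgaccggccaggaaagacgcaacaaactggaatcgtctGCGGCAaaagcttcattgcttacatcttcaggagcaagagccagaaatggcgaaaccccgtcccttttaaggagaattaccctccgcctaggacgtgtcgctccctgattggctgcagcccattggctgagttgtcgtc
chr11:7180831-7181130: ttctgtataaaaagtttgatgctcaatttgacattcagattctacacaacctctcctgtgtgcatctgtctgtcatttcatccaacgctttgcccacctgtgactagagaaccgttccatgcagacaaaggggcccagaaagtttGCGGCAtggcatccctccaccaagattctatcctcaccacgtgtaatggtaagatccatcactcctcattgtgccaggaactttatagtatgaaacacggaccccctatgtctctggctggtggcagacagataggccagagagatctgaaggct
Each peak held the hexanucleotide once, with both strands counted, and an interval of the same width 2 kb upstream held none. Few stretches this short hold it (11.6% of RefSeq promoters of 300 bases), so its absence from a single upstream interval is no contrast. In the whole list 1309 of 1423 peaks, 92.0%, held the hexanucleotide. The interval near *Igf1* was almost entirely repeat sequence, with 97.8% of its bases soft-masked, against 47.2% for the one near *Igfbp3*.

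The nearest peaks of the other 8 genes lay between 419483 bp (*Igfbp4*) and 2086231 bp (*Irs1*) away. A peak within 20 kb of the gene span was thus found for 1 of the 10 genes, 10.0%, and for 1031 of 24285 placed genes, 4.25%. Measured from the gene start, none of the 10 had a peak within 20 kb. The median distance was 521742 bp for the set and 598335 bp for all placed genes. The single gene with a peak within 20 kb was the one at the detection limit, and none of the 7 called genes had a peak closer than that of *Igfbp4*.

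Both receptors were lower in KO cells. *Igf1r*, on chromosome 7 (67952257 to 68233668, plus strand), encodes the receptor for IGF1 and IGF2. Its levels were 4.30, 4.09 and 4.55 FPKM in WT and 2.93 and 3.01 FPKM in KO. The groups were well apart, and the KO mean was 68.9% of the WT mean. *Igf1r* fell by 0.52 on the log2 scale (SE 0.08, 95% interval -0.70 to -0.34), with a limma adjusted p of 0.0031, and stayed past the threshold whichever library was left out.

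*Insr*, on chromosome 8 (3150922 to 3279649, minus strand), encodes the insulin receptor. It was measured at 1.84, 1.45 and 2.02 FPKM in WT and at 1.23 and 1.21 FPKM in KO. The WT libraries spread more widely than those of *Igf1r*, but both KO libraries lay below the lowest of them. *Insr* fell by 0.49 on the log2 scale (SE 0.15, 95% interval -0.86 to -0.12), with a limma adjusted p of 0.045. This call was narrow, and it was lost without WT 1 (adjusted p = 0.12), WT 3 (0.12), KO 1 (0.13) or KO 2 (0.16). The ratio of *Igf1r* to *Insr* FPKM was 2.47 ± 0.307 in WT and 2.43 ± 0.0746 in KO (SD over 3 and 2 libraries), so the 2 receptors stood in about the same proportion in both genotypes.

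The receptor substrates differed from each other. *Irs2* (chromosome 8, 10984681 to 11008929, minus strand), the adaptor that couples both receptors to PI3K and is itself induced by FOXO factors in several tissues, was the only called gene of the set that was higher in KO. It rose from 0.52, 0.60 and 0.40 FPKM in WT to 1.07 and 0.87 FPKM in KO. Both KO libraries lay above all WT libraries, at 191% of the WT mean. The log2 fold change was 0.83 (SE 0.19, 95% interval 0.35 to 1.30), with a limma adjusted p of 0.018, and without KO 1 it was 0.69 with an adjusted p of 0.094.

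*Irs1* (chromosome 1, 82233105 to 82291439, minus strand), the related adaptor, was barely expressed. It stood at 0.12, 0.13 and 0.12 FPKM in WT and at 0.14 and 0.12 FPKM in KO, on about 56 to 70 fragments per library. The groups overlapped, and the log2 fold change of 0.04 had a 95% interval from -0.44 to 0.52 (limma adjusted p = 0.89), too wide to leave out a moderate change in either direction. With quantile normalization it was 0.35 (adjusted p = 0.20). *Irs2* exceeded *Irs1* 4.09 ± 0.674 times in WT and 7.45 ± 0.278 times in KO (SD over 3 and 2 libraries).

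Of the 4 IGF-binding proteins, *Igfbp2*, *Igfbp4* and *Igfbp5* fell and *Igfbp3* was not called. Their summed level (*Igfbp1* to *Igfbp7*) was 44.7 ± 0.726 FPKM in WT and 23.3 ± 1.62 FPKM in KO (SD, n = 3 and 2). *Igfbp2* made up 89.9 ± 0.950% of this sum in WT and 86.3 ± 1.24% in KO. In both genotypes the order was *Igfbp2*, *Igfbp3*, *Igfbp4*, *Igfbp5*, and no neighbours in this order overlapped in either genotype.

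*Igfbp2*, a binding protein abundant in embryonic tissues, was expressed above 96.2% of all genes of the table in WT. It was measured at 40.9, 39.2 and 40.4 FPKM in WT and at 20.9 and 19.3 FPKM in KO. The replicates were tight in both groups, and the KO mean was 50.0% of the WT mean. *Igfbp2* fell by 1.00 on the log2 scale (SE 0.05, 95% interval -1.11 to -0.88), with a limma adjusted p of 2.9e-04, the smallest of the set. The estimate stayed between -1.05 and -0.94 when single libraries were left out.

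*Igfbp5*, a binding protein that attaches to extracellular matrix and bone, is the neighbour of *Igfbp2* on chromosome 1. The genes point towards each other, *Igfbp2* at 72824480 to 72852474 on the plus strand and *Igfbp5* at 72858065 to 72874865 on the minus strand, with 5590 bp between their 3′ ends. *Igfbp5* was measured at 0.51, 0.56 and 0.56 FPKM in WT and at 0.28 and 0.15 FPKM in KO. Both KO libraries were below all WT libraries but differed from each other, and the values rest on about 49 to 193 fragments. *Igfbp5* fell by 1.06 on the log2 scale (SE 0.22, 95% interval -1.60 to -0.53), with a limma adjusted p of 0.011, and the estimate ranged from -1.36 without KO 1 to -0.76 without KO 2. With a pseudocount of 1 in place of 0.1 it was -0.35 (adjusted p = 0.0079). The nearest ZFP57 peak to both genes was the same one, 484294 bp before *Igfbp2*.

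The promoters of *Igfbp2* and *Igfbp5*, the neighbours that fell together, are printed with that of *Irs2*, the gene that rose. They are RefSeq promoters of GRCm38.p6, from 250 bases before to 50 after the gene start, each read 5′ to 3′ on the gene's own strand. Capitals mark GC boxes, the letters GGGCGG, to which SP1-type factors bind.
*Igfbp2* chr1:72824230-72824529 plus strand: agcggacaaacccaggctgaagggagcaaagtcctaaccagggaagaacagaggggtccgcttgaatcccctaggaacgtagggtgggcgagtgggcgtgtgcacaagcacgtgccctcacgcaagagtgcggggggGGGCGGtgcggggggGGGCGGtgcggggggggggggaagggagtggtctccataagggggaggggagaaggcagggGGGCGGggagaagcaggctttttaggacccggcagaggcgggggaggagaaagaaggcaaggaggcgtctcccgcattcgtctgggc
*Igfbp5* chr1:72874816-72875115 minus strand: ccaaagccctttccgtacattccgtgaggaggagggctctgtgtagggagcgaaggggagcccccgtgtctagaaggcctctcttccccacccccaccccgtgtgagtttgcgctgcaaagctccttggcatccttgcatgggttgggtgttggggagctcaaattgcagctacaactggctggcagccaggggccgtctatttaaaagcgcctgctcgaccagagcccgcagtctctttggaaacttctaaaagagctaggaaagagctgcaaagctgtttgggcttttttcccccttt
*Irs2* chr8:11008880-11009179 minus strand: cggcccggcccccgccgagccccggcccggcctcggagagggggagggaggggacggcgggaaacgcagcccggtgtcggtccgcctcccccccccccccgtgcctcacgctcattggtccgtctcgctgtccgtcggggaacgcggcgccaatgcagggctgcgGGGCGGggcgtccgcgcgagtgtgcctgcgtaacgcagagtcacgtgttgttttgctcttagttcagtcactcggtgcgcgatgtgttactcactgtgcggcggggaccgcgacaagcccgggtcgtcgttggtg
The promoter of *Igfbp2* held 3 GC boxes, that of *Irs2* 1 and that of *Igfbp5* none. Among all 32851 RefSeq promoters 35.7% held at least 1 on either strand. The FOXO site GTAAACA, found in 3.65% of promoters, occurred in none of the 9 promoters that matched 8 of the 10 genes. The hexanucleotide TGCCGC, found in 11.6% of promoters, occurred once among the 9, in a second *Igfbp2* promoter at chr1:72825137-72825436. The letters TATAAA, found in 13.6%, occurred only in that of *Igfbp4*. These matches describe the sequence and do not mark sites.

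*Igfbp3* and *Igfbp4* both lie on chromosome 11. *Igfbp3* (7206086 to 7215498, minus strand), the main carrier of IGFs in blood, was measured at 2.20, 3.07 and 2.65 FPKM in WT and at 2.36 and 1.85 FPKM in KO. The groups overlapped, and the log2 fold change of -0.31 (95% interval -0.72 to 0.10) had a limma adjusted p of 0.19. It was -0.48 without KO 1, -0.20 without WT 2 and -0.14 without KO 2, none of them called. After subtraction of the chromosome's median it was 0.17 (95% interval -0.25 to 0.58, adjusted p = 0.47), so its direction depended on this step.

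*Igfbp4* (99040005 to 99052655, plus strand), which inhibits IGF action until a protease cleaves it, was measured at 1.10, 0.81 and 1.46 FPKM in WT and at 0.54 and 0.49 FPKM in KO. Both KO libraries lay below the lowest WT library, although WT libraries varied widely. *Igfbp4* fell by 0.96 on the log2 scale (SE 0.24, 95% interval -1.53 to -0.38), with a limma adjusted p of 0.021. After subtraction of the chromosome's median the log2 fold change was -0.48 with an adjusted p of 0.13. The call was also lost without WT 1 (adjusted p = 0.061), KO 1 (0.075) or KO 2 (0.11).

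**Figure D2:**
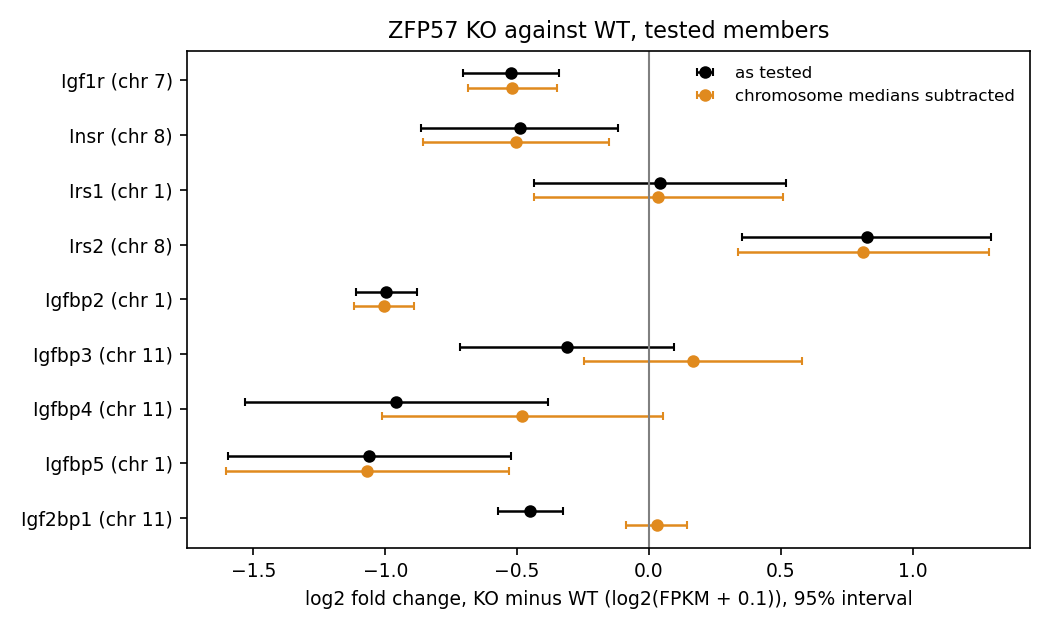
Log2 fold change (KO minus WT, on log2(FPKM + 0.1)) of the 9 tested genes with 95% intervals, as tested (black) and after the median difference of each gene's chromosome was subtracted (orange). The 2 points nearly coincide for genes of chromosomes 1, 7 and 8, while those of Igfbp3, Igfbp4 and Igf2bp1 on chromosome 11 move towards higher values, Igf2bp1 from -0.45 to 0.03.

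*Igf2bp1* (chromosome 11, 95957163 to 96005944, minus strand), an mRNA-binding protein of embryonic cells, was the most abundant gene of the set, above 98.6% of all genes in WT. It was measured at 89.9, 93.4 and 92.9 FPKM in WT and at 70.8 and 64.1 FPKM in KO. The groups did not overlap, and the KO mean was 73.3% of the WT mean. *Igf2bp1* fell by 0.45 on the log2 scale (SE 0.05, 95% interval -0.57 to -0.33), with a limma adjusted p of 0.0014. This was close to the median of chromosome 11, and relative to it the log2 fold change was 0.03 (95% interval -0.09 to 0.14, adjusted p = 0.66).

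The other mRNA-binding proteins of the family lie on other chromosomes and did not move alike. *Igf2bp2* (chromosome 16) had a mean of 18.2 ± 0.471 FPKM in WT and 14.9 ± 0.0566 FPKM in KO, a fall by 0.28 on the log2 scale with a limma adjusted p of 0.0033. *Igf2bp3* (chromosome 6) rose from 19.3 ± 0.438 to 28.0 ± 0.509 FPKM, a log2 fold change of 0.54 with a limma adjusted p of 5.2e-04. Chromosome 6 as a whole had a median log2 fold change of 0.17, and relative to it that of *Igf2bp3* was 0.37 (adjusted p = 0.0032). The summed level of the family was 129.5 ± 1.98 FPKM in WT and 110.4 ± 5.30 FPKM in KO. Within this sum the share of *Igf2bp1* was 71.1 ± 0.405% in WT and 61.1 ± 1.36% in KO, and that of *Igf2bp3* was 14.9 ± 0.148% and 25.4 ± 0.759% (SD, n = 3 and 2). The sum and shares use FPKM without subtraction of chromosome medians, after which *Igf2bp1* was not called (log2 fold change 0.03, limma adjusted p = 0.66).

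**Figure D3:**
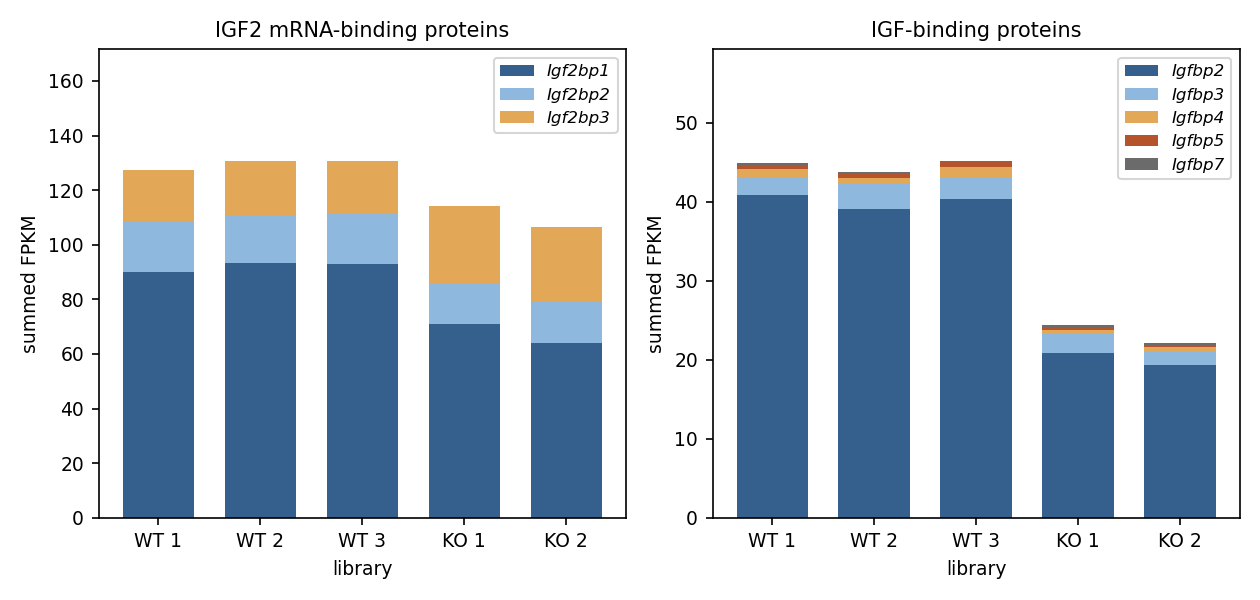
Stacked FPKM per library of the IGF2 mRNA-binding proteins (left) and of the IGF-binding proteins Igfbp2 to Igfbp5 and Igfbp7 (right). In KO libraries the Igf2bp1 segment is shorter and the Igf2bp3 segment taller than in WT libraries, and the Igfbp2 segment, which dominates its family, is about 20 FPKM instead of about 40.

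*Igfbp5* had the largest log2 fold change in size among the called genes, narrowly ahead of *Igfbp2*, and the genes closest to its pattern were sought over the 5 libraries by Euclidean distance of log2(FPKM + 0.1), centred on the WT mean. This rank depended on the setting, and the largest was *Igfbp2* with a pseudocount of 1 and with quantile normalization, *Irs2* without KO 2 and *Igfbp4* without WT 2. At an adjusted p under 0.01 and with replicate number as a block *Igfbp5* was not called, and with a mean of at least 1 FPKM it was not tested. In each of these settings *Igfbp2* had the largest change among the called genes of the set. The genes closest to *Igfbp5* were *B3glct* (distance 0.0501), *Ehd2* (0.0877) and *Neb* (0.0920). *B3glct*, a glucosyltransferase, was measured at 7.45, 8.14 and 8.16 FPKM in WT and at 4.51 and 3.08 FPKM in KO. Like *Igfbp5*, it was lower in KO 2 than in KO 1, which follows from how it was picked. Likeness over 5 libraries is a description of these samples.

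The rest of the pathway was read from 64 other genes, grouped by role and also chosen with earlier results known. Of them, 51 were tested. Of these, 27 passed the threshold, 52.9%, with 17 higher and 10 lower in KO, beside the 41.1% of all tested genes. Their median log2 fold change was 0.06.

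Ligands were scarce. *Ins1* and *Ins2*, the insulin genes, were listed at 0 FPKM in every library. *Igf2*, the paternally expressed imprinted ligand, was measured at 0.17, 0.12 and 0.08 FPKM in WT and at 0.23 and 0.21 FPKM in KO. Both KO libraries lay above all WT libraries, but the log2 fold change of 0.54 (95% interval -0.05 to 1.12) did not pass, with a limma adjusted p of 0.12. *Igf2r*, the maternally expressed receptor that clears IGF2, was lower, at 10.0, 9.81 and 10.6 FPKM in WT and at 6.53 and 7.93 FPKM in KO. It fell by 0.49 on the log2 scale, with a limma adjusted p of 0.0073.

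Among the 6 tested adaptors that act beside the IRS proteins, 2 were called higher and 1 lower, a share of 50.0% beside 41.1% of all tested genes. *Shc1*, which links the receptors to the RAS pathway, rose from a mean of 13.0 to 20.7 FPKM (log2 fold change 0.67, limma adjusted p = 4.1e-04). *Gab1*, a docking protein for PI3K and SHP2, rose from 34.2 to 38.2 FPKM (log2 fold change 0.16, limma adjusted p = 0.026). *Grb2*, on chromosome 11, fell from 24.6 to 17.0 FPKM (log2 fold change -0.53, limma adjusted p = 8.4e-04), and relative to its chromosome the log2 fold change was -0.05 with an adjusted p of 0.33. *Grb10*, an imprinted adaptor that inhibits both receptors and also lies on chromosome 11, overlapped between groups, at 4.61, 7.78 and 5.41 FPKM in WT and 6.75 and 9.26 FPKM in KO. Its log2 fold change was 0.44 with a limma adjusted p of 0.18, and 0.92 with an adjusted p of 0.034 relative to its chromosome.

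Of the other IGF-binding genes, 3 were tested and 2 were called, both higher in KO and both narrowly, beside 18.8% called higher over all tested genes. *Igfals*, the subunit that stabilises IGF complexes in serum, rose from 0.950 to 1.35 FPKM (log2 fold change 0.46, limma adjusted p = 0.048), a call lost after subtraction of chromosome medians (adjusted p = 0.055). *Igfbp7*, a low-affinity relative that was named after its values were seen, rose from 0.16 to 0.22 FPKM in WT libraries to 0.34 to 0.36 FPKM in KO libraries (log2 fold change 0.61, limma adjusted p = 0.044). *Igfbp5* exceeded *Igfbp7* in every WT library and was below it in both KO libraries. Of the proteases that cut binding proteins and their inhibitors, only *Stc2* was tested, at a mean of 3.56 FPKM in WT and 3.65 FPKM in KO (log2 fold change 0.03, limma adjusted p = 0.84), so it was not called. It lies on chromosome 11, and relative to it the log2 fold change was 0.51 with an adjusted p of 0.013.

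In the PI3K and phosphatase group 5 of 11 tested genes were called, 2 higher and 3 lower, 45.5% beside 41.1% of all tested genes. *Pik3r1*, the regulatory subunit that docks PI3K on IRS proteins, rose from 3.32 to 5.31 FPKM (log2 fold change 0.66, limma adjusted p = 0.0015). The lipid phosphatase SHIP2, encoded by *Inppl1*, was lower, from 12.6 to 5.80 FPKM (log2 fold change -1.11, limma adjusted p = 3.2e-04). The AKT phosphatases moved in opposite directions. *Phlpp2* fell from 2.25 to 0.970 FPKM (log2 fold change -1.13, limma adjusted p = 8.0e-04), whereas *Phlpp1* rose from 2.69 to 3.33 FPKM (log2 fold change 0.30, limma adjusted p = 0.035).

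Of 15 AKT and mTOR genes 8 were called, 5 higher and 3 lower, 53.3% beside the same 41.1%. *Pdpk1*, the kinase that activates AKT, rose from 16.1 to 20.1 FPKM (log2 fold change 0.32, limma adjusted p = 0.0052). *Akt2*, named after its values were seen, also rose, from 8.09 to 9.77 FPKM (log2 fold change 0.27, limma adjusted p = 0.012). *Akt1*, also named after its values were seen, was not called (log2 fold change 0.04, limma adjusted p = 0.74). *Rptor*, the scaffold of mTOR complex 1, and *Rps6kb1*, its substrate kinase, both lie on chromosome 11. They fell by 0.45 and 0.50 on the log2 scale (limma adjusted p = 0.0026 and 0.0030), and relative to their chromosome the log2 fold changes were 0.03 and -0.02, with adjusted p of 0.61 and 0.83.

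Among 11 tested FOXO factors and targets 6 were called, 5 of them higher, beside 41.1% called and 18.8% higher over all tested genes, and the median log2 fold change was 0.08. *Klf15*, a metabolic transcription factor, rose from 0.657 to 2.31 FPKM (log2 fold change 1.65, limma adjusted p = 0.0011), and *Bcl6*, a transcriptional repressor, from 0.720 to 1.96 FPKM (log2 fold change 1.34, limma adjusted p = 0.0031). *Cited2*, a transcriptional coregulator, rose from 8.64 to 16.5 FPKM (log2 fold change 0.92, limma adjusted p = 0.0071). *Cdkn1b*, which encodes the cell cycle inhibitor p27, rose from 4.58 to 7.99 FPKM (log2 fold change 0.79, limma adjusted p = 9.2e-04). *Sesn1*, a stress-induced inhibitor of mTOR signalling that was named after its values were seen, fell from 6.08 to 3.88 FPKM (log2 fold change -0.63, limma adjusted p = 0.0020). *Klf15* and *Cdkn1b* lie on chromosome 6, and relative to its median their log2 fold changes were 1.49 and 0.62. *G6pc* and *Pck1*, the FOXO1 targets of glucose production in liver, were at or near 0 in every library.

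**Figure D4:**
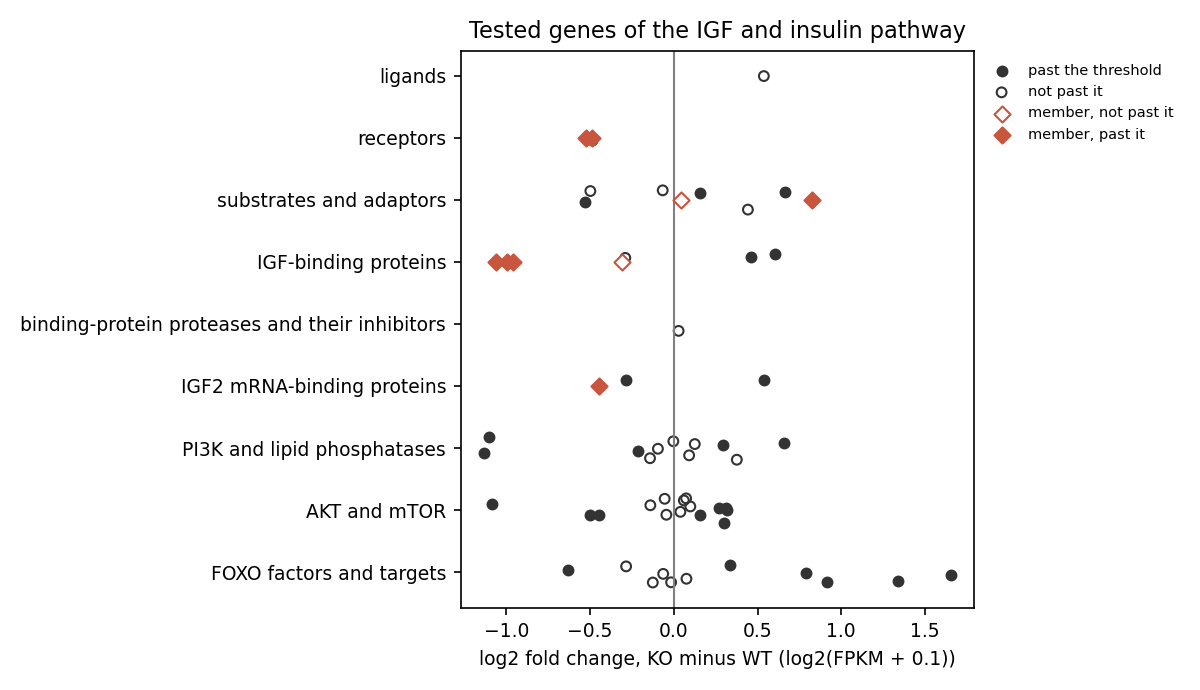
Log2 fold change (KO minus WT, on log2(FPKM + 0.1)) of every tested gene of the pathway by role. Circles are the 51 other genes and red diamonds the 9 tested members, filled where the adjusted p was under 0.05. The called binding-protein members lie between -1.06 and -0.96 and the other called genes of their group at 0.46 and 0.61, and the FOXO group spans -0.63 to 1.65 with a median of 0.08.

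The genes around each member were compared in windows of 500 kb on either side of its span, an analysis chosen after the values were seen, and the counts stand beside 41.1% called and 22.3% called lower over all tested genes. Around *Igfbp2* and *Igfbp5* 5 neighbours each were tested, and the only one called was the partner of the pair, with a median log2 fold change of 0.06 among the neighbours of each. Around *Igf1r* 2 of 6 neighbours were called lower, *Pgpep1l* with a log2 fold change of -1.77 and *Fam169b* with -1.66, and the median over the 6 was -0.55. Around *Irs2*, which rose, 2 of 4 neighbours were called and both were lower, *Rab20* with a log2 fold change of -1.92 and *Col4a1* with -0.59, and the median over the 4 was -0.40. *Irs2* thus moved in the opposite direction to its called neighbours.

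Around *Insr* 4 of 12 neighbours were called, all lower, with a median of -0.06. On chromosome 11 most neighbours of the called members were lower as well, with 11 of 15 called lower around *Igfbp4* and 14 of 22 around *Igf2bp1*, and medians of -0.49 and -0.55, where 67.4% of the whole chromosome was called lower. One of the 14, *Mir3063*, lies within the span of *Igf2bp1*, where reads could be shared. The only tested neighbour of *Igfbp3*, the 4 of *Igf1* and the 2 of *Irs1* were not called.

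**Figure D5:**
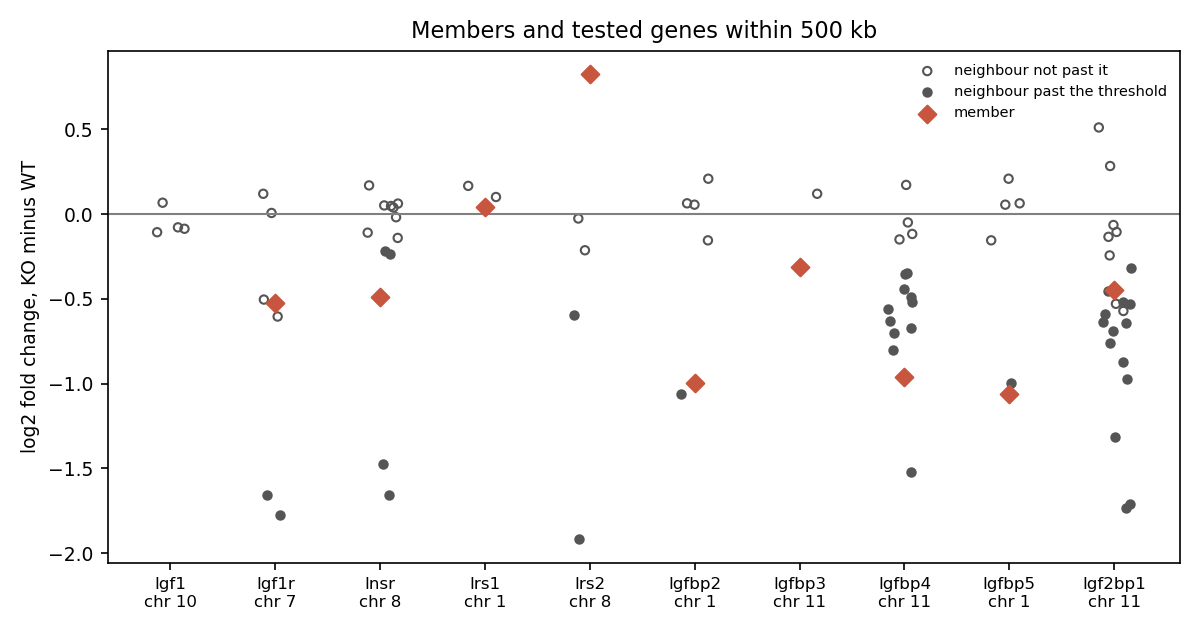
Log2 fold change (KO minus WT, on log2(FPKM + 0.1)) of the tested members (red diamonds) and of the tested genes within 500 kb (circles, filled where the adjusted p was under 0.05). Igfbp2 and Igfbp5 stand about 1 below their other neighbours, Irs2 stands above all of its neighbours, and Igf2bp1 lies amid neighbours of chromosome 11 that were lower as well.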

How the data were processed

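ES cells, 3 WT and 2 ZFP57 KO libraries, were sequenced with paired reads of 150 bp from 1 µg of total RNA. The authors deposited expression as FPKM with 2 decimals and ZFP57 peaks as positions in mm10. The submitters' processing notes name FastQC 0.11.5, Trim Galore 0.2.7, STAR 2.5.2, BWA 0.6.2, Picard and MACS2 2.1.0. The counting, its annotation and its use of strand are not given in the sources used here.

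The 10 members, the pathway lists and the marker lists were chosen with earlier results of these data known. The 14612 of 24409 genes whose mean over the 5 libraries reached 0.1 FPKM entered limma 3.58.1 (R 4.3.3, eBayes with trend) as log2(FPKM + 0.1), with Benjamini-Hochberg adjustment over all of them, two-sided, at 0.05. A fold change on this scale understates that of low genes. A single value of 3 against 2 libraries cannot go below p = 0.1 in an exact permutation test. The fit was tested on simulated data. Alternatives covered pseudocounts of 1 and 0.01, filters, scaling, variance models, chromosome medians, a replicate block, single libraries and thresholds.

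Depth was recovered from the steps of small RNA values. Between 92.6 and 94.9% of them lay within 0.1 of a whole multiple, and 1 fragment on 1 kb was worth 0.0170 to 0.0197 FPKM. Approximate fragments are FPKM times the length of all RefSeq exons of the gene and cover counting error only. The depth behind the peaks is unknown.

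Genes were placed on GRCm38 with RefSeq, 23193 by symbol and 1095 by synonym, of which 3 had no position, and 121 had no match. Distances run from the gene span to the nearest peak of the C57BL/6J list. Members are all named. Of each pathway list, up to 4 genes were named that were called, averaged 1 FPKM or more and did not overlap between genotypes, by size of the log2 fold change, together with *Igf2*, *Igf2r* and *Grb10*. For the called member with the largest change, the 3 closest genes were named. Neighbours, genes at 0 and those said to be named later fall outside this rule. 1 gene that the rule names is not reported here. Python 3.11.15, pandas 2.3.3 and matplotlib 3.10.9 were used. Protein sequences, KAP1, H3K9me3 and the hybrid lines' libraries were not analysed here.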

Additional observations from a re-analysis of the deposited data

How the results depend on the processing

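Under 17 alternatives the members past the threshold, 7 as reported, numbered 4 with a mean of at least 1 FPKM (5 tested), 3 at an adjusted p under 0.01, 1 (*Igfbp5*) when a change of 1 or more on the log2 scale was also required, and 4 to 7 when 1 library was left out, the lowest without KO 1. All genes past the threshold numbered 3291 at the stricter p, 1172 with the larger change, and 4095 to 4775 without 1 library, against 6002. The other pathway genes numbered 5 with the larger change, against 27. With distances from the gene start, 0 members had a peak within 20 kb. After subtraction of chromosome medians *Igf2bp1* was at 0.029 and *Igfbp3* at 0.17 on the log2 scale, and *Irs1* ranged from -0.021 (without KO 1) to 0.10 when 1 library was left out and was at 0.35 (adjusted p = 0.20) with quantile normalization. A pseudocount of 1 shrank the log2 fold changes of low genes, to -0.35 for *Igfbp5*, -0.48 for *Igfbp4*, -0.31 for *Insr* and 0.39 for *Irs2*, all still called. *Igf1r*, *Igfbp2*, *Igfbp5* and *Igf2bp1* passed without any 1 library, and *Insr* also failed with no filter (adjusted p = 0.077), quantile normalization (0.064) and no variance trend (0.060). With a replicate block 3 members (*Igf1r*, *Igfbp2* and *Igf2bp1*) and 3012 genes passed. Deviations from the group means had correlations of -0.07 (replicate 1) and -0.04 (replicate 2) between libraries with the same number. With 2 KO libraries the KO deviations mirror each other, so these correlations cannot decide whether the numbers pair libraries. The depth of a few fragments limits *Igf1*, and 2 KO libraries limit every comparison.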
